A study of Mus musculus with 9 samples.

Results

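Hearts of wild-type mice given isoproterenol were set against hearts of untreated OMA1 knockout mice. The comparison takes in 6 of the 9 RNA-seq samples of the series, 3 per group, and the 8543 of 13539 listed genes whose normalized count was 10 or more in 3 or more of the 9 samples. All mice were 12-week-old males of the strain C57BL/6JOlaHsd, a C57BL/6J substrain known to lack the genes for alpha-synuclein and multimerin 1. The treated mice were wild type and received 10 mg/kg of isoproterenol per day from osmotic minipumps for 7 days. The other group was OMA1 KO and non-treated, and the labels name no pump or vehicle for it. The knockout is described only as OMA1 KO, with no restriction to a cell type and no account of the allele. The remaining 3 samples, OMA1 KO hearts given isoproterenol, entered the fit and are quoted only beside a result. Genotype and treatment both differ between the 2 groups, and hearts of untreated wild-type mice were not analysed here, so the share of each in any difference cannot be told apart.

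OMA1 is a protease that sits in the inner membrane of mitochondria and becomes active under stress. When the membrane loses its potential it cleaves the long forms of OPA1, a dynamin-like GTPase that fuses inner membranes and holds the cristae in shape. Isoproterenol stimulates beta-adrenergic receptors and so raises heart rate and force. Given for days it is a common model of cardiac enlargement and scarring, in which fibroblasts lay down collagen and other matrix. Mouse heart muscle otherwise burns mainly fatty acids.

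Values below are normalized counts, the gene values as deposited, in the order of replicates 1, 2 and 3. How they were scaled between samples is not stated in the sources used here, and the sample totals were near each other but not equal. They are not divided by transcript length, so levels are compared between samples and not between genes. Differences are log2(value + 1) in treated wild-type minus untreated knockout hearts, with the standard error of a limma fit, and p-values are adjusted by the Benjamini-Hochberg method over the 8543 genes. A gene is called higher or lower at an adjusted p under 0.05. A group difference in tissue RNA does not separate fewer cells of a type from less RNA per cell.

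The targeted gene Oma1 (ENSMUSG00000035069, GRCm38 chromosome 4, 103313812 to 103371868) was at 22.0, 19.9 and 17.7 in treated wild-type hearts and at 6.52, 9.10 and 6.63 in untreated knockout hearts. The groups did not overlap, and the difference was 1.32 ± 0.14 (adjusted p = 2.3e-05; 0.78 with a pseudocount of 10). Reads therefore still fell on the locus in knockout hearts, as they did in treated knockout hearts (5.73 to 6.74). Opa1 (ENSMUSG00000038084, chromosome 16, 29579334 to 29654884), the substrate of the protease, was at 202, 214 and 180 against 196, 206 and 187. These ranges overlapped, and the difference was 0.01 ± 0.10 (adjusted p = 0.94), while treated knockout hearts had 107 to 139.

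Of the 8543 genes, 2839 were called (33.2%), with 1399 higher (16.4%) and 1440 lower (16.9%) in treated wild-type hearts. At least a 2-fold difference on the log2(value + 1) scale was reached by 111 of the higher and 74 of the lower genes. The count of called members in each gene list below is to be read against these shares of 16.4% and 16.9%. The groups did not overlap at 4051 genes (47.4%). Equal totals of the nuclear genes alone moved the median difference of all genes from 0.01 to 0.06 and gave 1790 higher and 1112 lower, so that 61.7% of the calls were higher against 49.3%. Samples had 6933879 to 12187701 reads. RNAs of the mitochondrial genome held 36.98 ± 0.29% of the signal in treated wild-type and 34.12 ± 0.40% in untreated knockout hearts (SD, n = 3; exact two-sided permutation p = 0.1, the smallest that 3 against 3 allows). Calls also moved with transcript length. With genes in 4 equal classes of length, 249 were higher and 483 lower in the shortest class (151 to 2398 bases) and 447 and 248 in the longest (5153 to 106824 bases). A correction for transcript length and GC content made these 324 and 301, and 323 and 311.

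**Figure D1:**
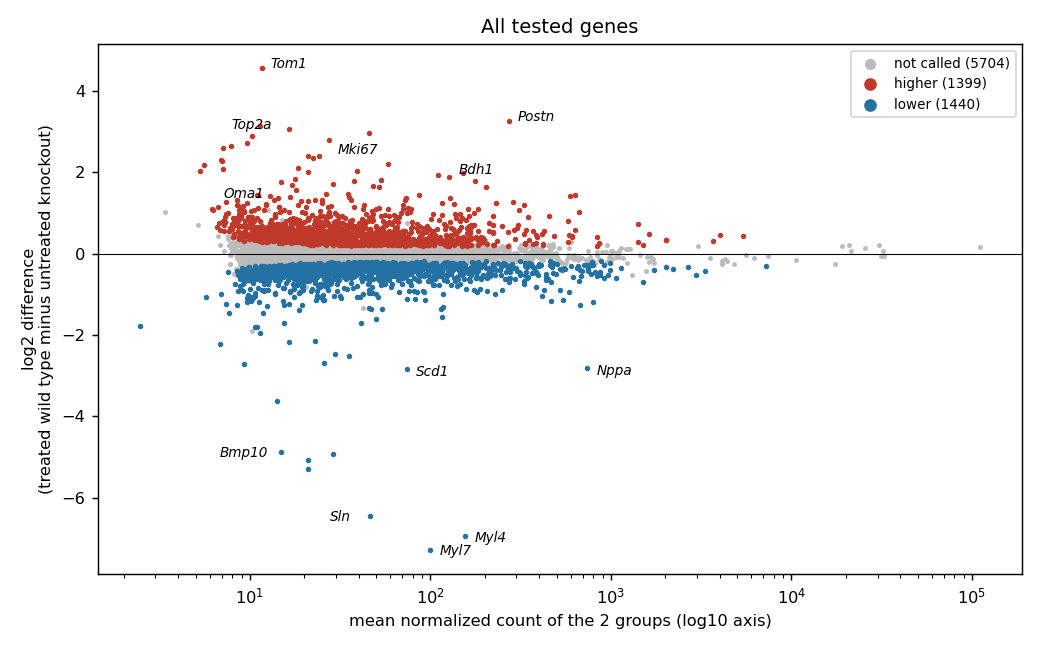
Log2 difference, treated wild-type minus untreated knockout hearts, against the mean normalized count of both groups (log10 axis), with 1 point per tested gene. The 1399 genes called higher are red, the 1440 called lower blue and the rest grey, and the lowest points are the atrial genes Myl7, Myl4 and Sln.

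Libraries stood apart in 2 ways. The first is that markers of atrial muscle were higher in all 3 untreated knockout hearts, some of them near 0 in both treated groups. Myl7, the atrial regulatory light chain of myosin (ENSMUSG00000020469, chromosome 11, 5896637 to 5898782), was at 279, 131 and 189 in untreated knockout hearts and at 0.275, 0.231 and 0.192 in treated wild-type hearts. Sln, sarcolipin, an inhibitor of the calcium pump in atrial muscle, was at 134, 53.7 and 88.1 against 0 in all 3 treated wild-type samples. That is at least 912-fold lower, taking 3 reads over the group as the floor. Bmp10, a growth factor of the atrial wall, was at 42.9, 17.8 and 29.0 against 0 in all 3 (at least 296-fold lower). Replicate 1 was the highest and replicate 2 the lowest untreated sample for all 3 genes. Treated knockout hearts had at most 0.417 of Myl7, 0.0811 of Sln and 0 of Bmp10.

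Without a minimum level, 10 of the 11 listed atrial markers were lower in treated wild-type hearts, against 12.9% of all listed genes, and their sum was 152, 173 and 937 against 2863, 1322 and 1945. The exception was Nr2f2, a transcription factor of atrial muscle and veins, at 9.31 ± 0.88 and 11.4 ± 2.41 (SD, n = 3), a difference of -0.25 ± 0.14 (adjusted p = 0.20). Myl4, the atrial essential light chain, was at 1.39 ± 0.34 and 311 ± 135 (-6.95 ± 0.25, adjusted p = 6.9e-10). Mybphl, a myosin-binding protein of atria and the conduction system, was at 0 to 0.115 against 26.2 to 61.7 (-5.29 ± 0.35, adjusted p = 6.8e-07; -2.31 with a pseudocount of 10). Dkk3 and Stard10, both on the atrial list, differed by -2.53 ± 0.40 and -2.46 ± 0.18. The ventricular light chain Myl2 was at 3849 ± 371 and 4362 ± 146, which did not pass the test (-0.18 ± 0.08, adjusted p = 0.11). With replicate 2 of the treated wild-type group left out it was called lower (-0.26, adjusted p = 0.044). Of the 5 tested ventricular markers 3 were lower and 0 higher (median -0.27). One of these, Mpped2 (-0.27, adjusted p = 0.047), lost its call under several alternatives, among them no minimum level (adjusted p = 0.057). Over the list the sums did not overlap, at 6537, 7089 and 5664 against 8249, 8255 and 7692.

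Markers of fat and of the mesothelial lining of the heart were also higher in the untreated group. Adipoq, the adipocyte hormone adiponectin, was at 4.95, 3.32 and 17.0 in untreated knockout hearts and at 0.0917, 0 and 0 in treated wild-type hearts. Cfd, the adipocyte protease adipsin, was at 15.2, 7.99 and 34.4 against 0.0917 to 0.115. Cidec, a lipid droplet protein, and Ucp1, the uncoupling protein of brown fat, were listed at 0 in every treated wild-type sample and at 2.71 to 10.1 and 1.81 to 10.8 in untreated knockout samples. Upk3b, a mesothelial marker, was at 11.8, 13.2 and 31.6 against 4.77, 3.92 and 2.69 (-1.94 ± 0.31, adjusted p = 0.00040; -1.0 with a pseudocount of 10). Replicate 3 of the untreated knockout group was the highest for each of these genes. Of 6 listed adipocyte markers 5 were lower without a minimum level, and of 7 epicardial and mesothelial markers 5 were lower and 1 higher. The part of these tissues in the differences described below was not tested.

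The second is that replicate 3 stood apart among treated wild-type hearts. On the second principal component of the 6 samples (10.4% of the variance, against 73.3% for the first, which separated the groups) it lay at -12.9, with the other two at 8.45 and 7.72. It had the highest value of the group for most matrix genes and for Nppa, and the lowest for many genes of energy metabolism, as the values below show.

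**Figure D2:**
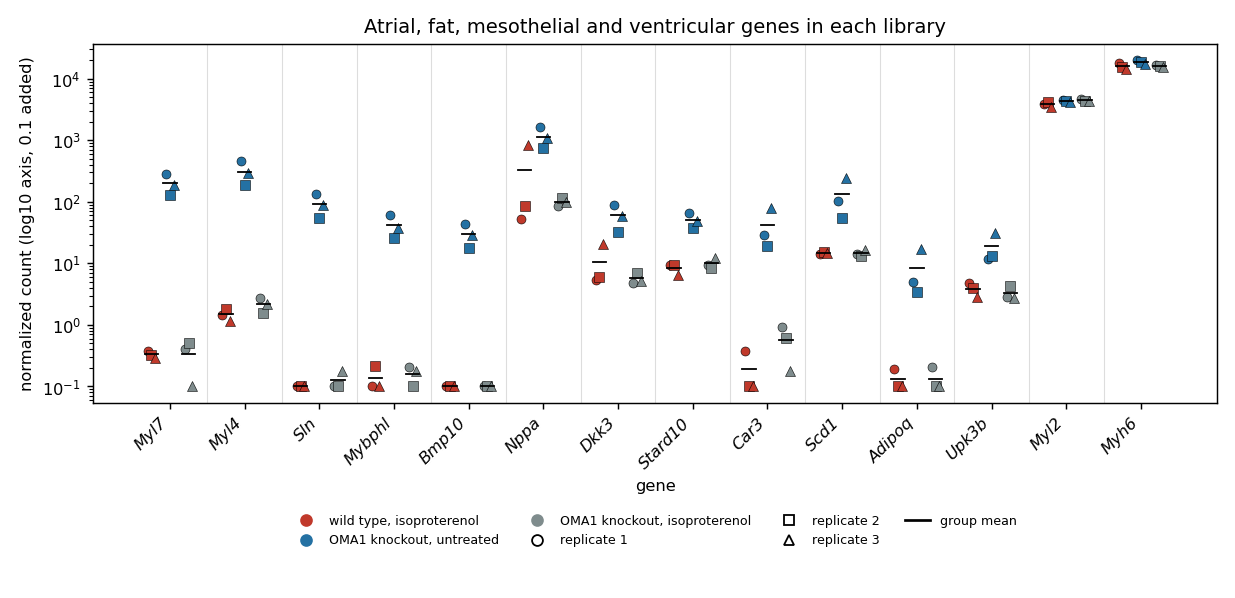
Normalized count of 14 marker genes in each of the 9 samples (log10 axis, 0.1 added to every value). Colours mark the groups, symbols the replicate number and bars the group means. Myl7, Sln, Bmp10, Mybphl, Car3 and Adipoq sit near the bottom of the axis in both treated groups and well above it in untreated knockout hearts, while Myl2 and Myh6 lie close together in all samples.

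Genes of the mitotic spindle and cytokinesis were higher in treated wild-type hearts throughout. Cells entering mitosis make the proteins of the spindle and of cytokinesis in 1 burst, and their promoters are known for 2 elements, the cell cycle homology region (CHR) and the CCAAT box. All 29 genes of the list of mitotic spindle and cytokinesis were higher when every listed gene was tested, against 13.7% of all genes, with a median difference of 1.92. 10 of them reached the minimum level. For 9 of these every untreated knockout sample was below 10, and the tenth was Cenpf, a kinetochore protein named after its values were seen, at 58.3 ± 16.3 against 26.3 ± 3.50 (SD, n = 3). The summed level was 297, 348 and 365 in treated wild-type hearts and 60.0, 64.7 and 66.9 in untreated knockout hearts. Treated knockout hearts had 285, 447 and 348.

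The promoters of 3 of the leading genes are shown because these elements are known from promoters of such genes. Whether the elements bear on the differences was not tested. The stretches run from 250 bases before the start of transcription to 10 bases after it, 5′ to 3′ on the gene's strand, from RefSeq on GRCm38.p6. Capitals mark matches to CCAAT (the CCAAT box) and TTTGAA (the CHR) on either strand, so that they also appear as ATTGG and TTCAAA. The stretch of Prc1 is chr7:80294201-80294460 (plus strand), that of Top2a chr11:99024180-99024439 (minus strand) and that of Mki67 chr7:135716370-135716629 (minus strand).
Prc1: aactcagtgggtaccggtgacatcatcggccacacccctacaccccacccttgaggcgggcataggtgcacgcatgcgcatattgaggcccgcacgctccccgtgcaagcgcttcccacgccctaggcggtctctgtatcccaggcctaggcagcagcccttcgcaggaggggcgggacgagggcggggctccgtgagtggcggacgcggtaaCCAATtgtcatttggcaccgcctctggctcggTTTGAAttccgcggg
Top2a: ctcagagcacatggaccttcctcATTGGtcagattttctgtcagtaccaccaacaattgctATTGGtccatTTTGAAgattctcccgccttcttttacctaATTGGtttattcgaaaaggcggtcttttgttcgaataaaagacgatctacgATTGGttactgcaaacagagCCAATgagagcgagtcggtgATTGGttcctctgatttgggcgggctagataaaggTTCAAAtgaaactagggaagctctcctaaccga
Mki67: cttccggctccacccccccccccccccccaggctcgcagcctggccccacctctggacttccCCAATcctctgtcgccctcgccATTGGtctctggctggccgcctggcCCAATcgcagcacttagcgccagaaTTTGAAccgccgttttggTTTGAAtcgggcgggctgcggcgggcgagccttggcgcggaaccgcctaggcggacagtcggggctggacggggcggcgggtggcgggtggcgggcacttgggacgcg
Prc1 has 1 match of each kind, Top2a 6 of CCAAT and 2 of TTTGAA, and Mki67 3 and 2. In the table of promoters, which reach from 250 bases before to 50 after the start, 25 of the 29 genes had an entry, with 27 windows in all. TTTGAA was in 21 of the 27 (77.8%), against 17.9% of all 32851 windows. CCAAT was also in 21 (77.8%, against 37.4%), and both were in 18 (66.7%, against 6.95%). With only the 250 bases before the start, TTTGAA was in 11 of the 27 (40.7%, against 16.0%), CCAAT in 21 (against 33.9%) and both in 10 (37.0%, against 5.55%). The 2 motifs share no letters in these stretches. A match describes letters in a window and not a bound site.

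Top2a, topoisomerase II alpha, which untangles chromosomes, was at 25.2, 34.4 and 31.2 in treated wild-type hearts and at 2.66, 1.97 and 3.73 in untreated knockout hearts. The groups lay far apart (3.06 ± 0.22, adjusted p = 1.2e-06; 1.65 with a pseudocount of 10). Mki67, the Ki-67 proliferation antigen, was at 41.8, 44.7 and 59.7 against 5.07, 6.15 and 7.18 (2.80 ± 0.20, adjusted p = 1.3e-06; 1.85 with a pseudocount of 10). Prc1, which bundles the microtubules of the midzone, was at 12.5, 19.4 and 20.5 against 1.57, 1.60 and 2.07 (2.72 ± 0.21, adjusted p = 1.8e-06). Ccna2, cyclin A2, and Tpx2, a spindle assembly factor, differed by 2.63 ± 0.21 and 2.59 ± 0.29, and Anln, the cytokinetic scaffold anillin, by 2.29 ± 0.20. With a pseudocount of 10 the differences of Prc1, Ccna2, Tpx2 and Anln were 1.21, 1.08, 1.0 and 0.92. For all 6 genes every treated wild-type sample was above every untreated knockout sample, and the lowest value of the treated group came from replicate 1. Treated knockout hearts were at 21.1 to 43.3 for Top2a and 39.8 to 80.7 for Mki67.

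Of 24 listed genes of DNA replication, 13 were higher and 0 lower without a minimum level (median 0.64), against 13.7% and 12.9% of all genes. Of the 9 listed that reached the minimum 4 were higher and 0 lower (median 0.37). Mcm6 and Mcm3, subunits of the replicative helicase, were at 11.3, 17.5 and 18.0 against 6.28, 8.12 and 5.39, and at 11.8, 12.6 and 12.1 against 5.92, 4.67 and 5.25. The differences were 1.12 ± 0.18 and 1.07 ± 0.20 (adjusted p = 0.00045 and 0.0011). Rrm1, a subunit of ribonucleotide reductase, differed by 0.57 ± 0.11 (adjusted p = 0.0012), and Pcna, the sliding clamp of replication, by 0.29 ± 0.11 (adjusted p = 0.056). Pcna was called higher under several alternatives, among them the 6 samples fitted alone (adjusted p = 0.027) and the replicate block (adjusted p = 0.021). The call of Mcm2 (0.71 ± 0.19, adjusted p = 0.013) did not hold with replicate 2 of the treated wild-type group left out (0.57, adjusted p = 0.063). With a pseudocount of 10 the differences of Mcm6, Mcm3 and Mcm2 were 0.62, 0.54 and 0.34.

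Matrix genes formed the other large block that was higher. All 16 tested fibrillar and basement membrane collagens were higher, with a median of 1.07 and a range of 0.48 to 2.20, against 16.4% of all tested genes. Col3a1, the fibrillar collagen III of soft tissue (ENSMUSG00000026043, chromosome 1, 45311538 to 45349706), was at 611, 692 and 1322 in treated wild-type and at 295, 295 and 340 in untreated knockout hearts. The groups did not overlap (1.41 ± 0.20, adjusted p = 0.00018). Col1a1, the chain of fibrillar collagen I, was at 158, 165 and 458 against 99.2, 107 and 111 (1.11 ± 0.28, adjusted p = 0.0085), and the difference was 0.61 without treated wild-type replicate 3 (adjusted p = 9.7e-05). Col8a1, a short-chain collagen of remodelling tissue, was at 59.4, 75.2 and 161 against 19.1, 19.4 and 17.7 (2.20 ± 0.25, adjusted p = 3.8e-05). The basement membrane chains Col4a1 and Col4a2 varied little among replicates. Col4a1 was at 828, 890 and 953 against 416, 427 and 459 (1.03 ± 0.08, adjusted p = 2.3e-06), and Col4a2 differed by 0.92 ± 0.08. Col6a1 and Col6a2, chains of beaded-filament collagen VI, differed by 0.94 ± 0.11 and 0.82 ± 0.10.

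Of 19 tested matrix glycoproteins and matricellular genes 17 were higher and 1 lower (median 1.43), against 16.4% and 16.9% of all tested genes. Without a minimum level 17 of 23 were higher and 1 lower, against 13.7% and 12.9% of all listed genes. With a value of 10 or more required in all 6 samples 13 of 15 were higher, and with limma voom on recovered reads 12 of 19. Postn, periostin, which activated fibroblasts secrete (ENSMUSG00000027750, chromosome 3, 54361109 to 54391037), was at 198, 270 and 1043 against 38.8, 34.4 and 44.6. The groups did not overlap (3.26 ± 0.41, adjusted p = 7.5e-05), and the difference was 2.53 without treated wild-type replicate 3 (adjusted p = 2.8e-08). Fbn1, the microfibril protein fibrillin 1, was at 224, 235 and 364 against 71.6, 81.3 and 80.0 (1.77 ± 0.14, adjusted p = 2.3e-06). Sparc, a collagen-binding matricellular protein, Fstl1, a secreted glycoprotein, and Vcan, the proteoglycan versican, differed by 1.43 ± 0.13, 1.63 ± 0.19 and 1.72 ± 0.17. Mfap5, a microfibril-associated protein, was at 41.4, 49.6 and 102 against 12.6, 14.3 and 14.8 (2.03 ± 0.23, adjusted p = 3.6e-05). Replicate 3 was the highest treated wild-type sample for each of these 6 genes.

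Replicate 3 weighed most in 3 further genes. Cilp, a matrix protein of cartilage and scarred heart, was at 35.7, 39.7 and 178 against 6.89 to 7.61 (2.97 ± 0.41, adjusted p = 0.00015; 2.23 without that sample). Thbs4, thrombospondin 4, was at 9.63, 9.45 and 97.4 against 2.49 to 3.69 (2.39 ± 0.60, adjusted p = 0.0078), and 1.32 without that sample. Ltbp2, a microfibril-bound relative of the latent TGF-beta binding proteins, was at 10.8, 11.6 and 100 against 2.78 to 4.70 (2.35 ± 0.58, adjusted p = 0.0071), and 1.33 without it. With limma voom on recovered reads the calls of Thbs4 (adjusted p = 0.12) and Ltbp2 (adjusted p = 0.097) were lost. With a pseudocount of 10 they differed by 1.38 and 1.40. Olfml2b, a secreted olfactomedin-like protein, showed no such spread, with 45.5, 42.0 and 36.0 against 6.76 to 7.61 (2.38 ± 0.11, adjusted p = 2.0e-08; 1.58 with a pseudocount of 10).

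The member that went the other way was Cyr61, a matricellular target of YAP signalling, at 25.4, 28 and 44.2 against 47.2, 46.0 and 43.1. These ranges overlapped (-0.51 ± 0.17, adjusted p = 0.030), and the call was lost without any 1 of 5 samples, treated wild-type replicates 1 and 2 and all 3 untreated knockout replicates (adjusted p = 0.052 to 0.12). It was also lost by edgeR (adjusted p = 0.058), with equal totals of the nuclear genes (adjusted p = 0.065) and once length and GC content were corrected for (adjusted p = 0.070, and 0.097 with the replicate block).

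Of 18 enzymes of collagen processing and matrix remodelling 14 were higher and 1 lower (median 0.47). Loxl2, a lysyl oxidase that cross-links collagen, was at 53.4, 70.6 and 98.3 against 21.3, 19.9 and 25.7 (1.65 ± 0.16, adjusted p = 1.0e-05). The gelatinase Mmp2, the membrane metalloproteinase Mmp14 and the procollagen peptidase Adamts2 differed by 1.01 ± 0.16, 1.05 ± 0.17 and 1.19 ± 0.18. Timp4, an inhibitor of metalloproteinases that heart muscle makes, was the lower member, at 4.58, 6.80 and 7.02 against 12.4, 15.6 and 12.2 (-1.02 ± 0.16, adjusted p = 0.00036; -0.54 with a pseudocount of 10).

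TGF-beta signalling, a main driver of fibroblast activation, showed few calls: 3 of 16 tested members were higher and 0 lower (median 0.06), near the 16.4% of all genes. They were Skil (0.46 ± 0.08), a SMAD corepressor, Tgfbr2 (0.37 ± 0.09), the type II receptor, and Bambi (0.38 ± 0.10, and 0.25 with a pseudocount of 10), a decoy receptor. The ligand gene Tgfb1 was at 18.0, 21 and 22.9 against 13, 16.4 and 15.9, which did not overlap and did not pass (0.42 ± 0.17, adjusted p = 0.069). It passed under 7 of 26 alternatives, among them the 6 samples fitted alone (adjusted p = 0.017).

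**Figure D3:**
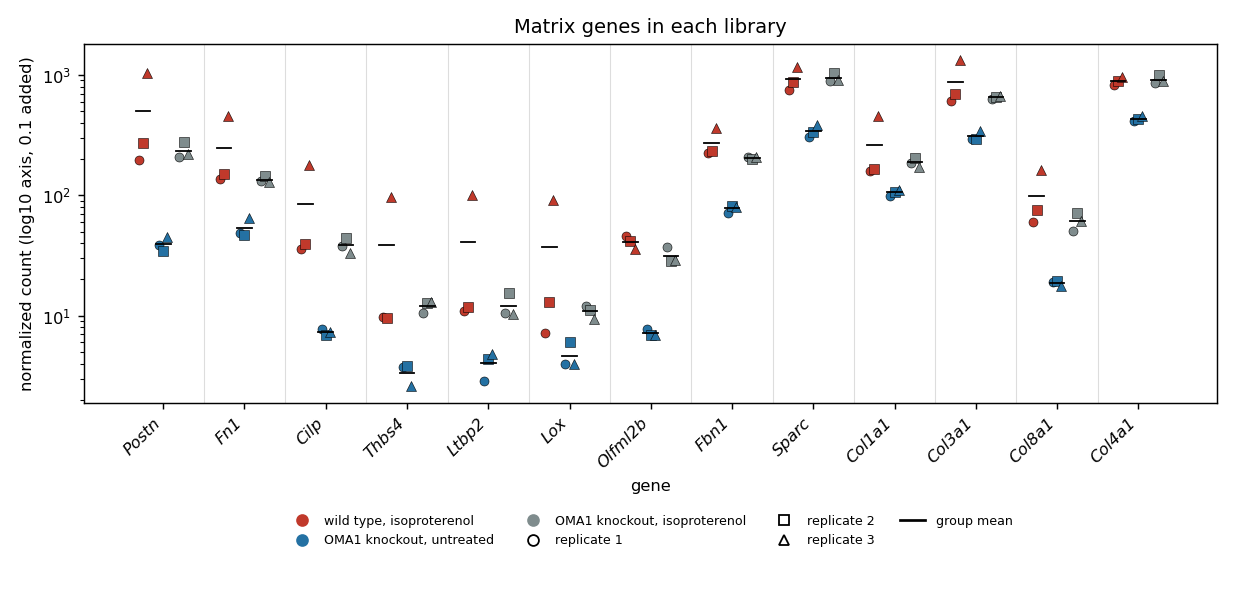
Normalized count of 13 matrix genes in each of the 9 samples (log10 axis, 0.1 added to every value), with groups by colour, replicate numbers by symbol and group means as bars. Treated wild-type samples lie above untreated knockout samples for every gene, and the triangle of treated wild-type replicate 3 stands above its group for Postn, Cilp, Thbs4 and Ltbp2 but not for Olfml2b.

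The genes usually read as signs of cardiac enlargement did not move as 1 block. The hypertrophy and fetal program list had 2 of 20 genes higher and 7 lower (median -0.15). Nppa, atrial natriuretic peptide (ENSMUSG00000041616, chromosome 4, 148000722 to 148002079), was at 51.8, 86.0 and 842 in treated wild-type and 1616, 740 and 1101 in untreated knockout hearts. The groups overlapped through replicate 3 of the treated group (-2.80 ± 0.69, adjusted p = 0.0075), and without that sample the difference was -4.02. By edgeR and DESeq2 on recovered reads it was -1.80 in both and not called (adjusted p = 0.077 and 0.16). Nppa is an atrial gene, and its order among untreated knockout samples was that of Myl7. The part of atrial tissue in its difference was not tested. Nppb, brain natriuretic peptide, which ventricles make under load, was at 124 ± 64.5 and 87.4 ± 13.9 (SD, n = 3; 0.40 ± 0.24, adjusted p = 0.22).

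Myh7, the slow fetal myosin heavy chain, was at 64.3, 57.5 and 301 against 162, 122 and 160 (-0.49 ± 0.43, adjusted p = 0.40), and with replicate 3 of the treated wild-type group left out it was called lower (-1.26, adjusted p = 3.5e-06). Acta1, skeletal alpha-actin, was at 287 ± 189 and 275 ± 45.5 (SD, n = 3), with a difference of -0.13 (adjusted p = 0.78) and, without that sample, -0.63 (adjusted p = 0.019). With array weights Myh7 was also called (-0.84, adjusted p = 0.045). Myh6, the main adult heavy chain, differed by -0.25 (adjusted p = 0.072), and 6 alternatives called it lower.

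Fhl1, a LIM-domain protein of the stretch response (chromosome X, 56731787 to 56793346), was the leading higher member, at 184, 189 and 295 against 106, 93.7 and 103 (1.10 ± 0.14, adjusted p = 8.6e-05). Enah, an actin regulator, differed by 0.40 ± 0.10 (adjusted p = 0.0076), a call lost with the replicate block and the length and GC correction together (0.29, adjusted p = 0.056). Lower members included Myh7b, a slow-muscle myosin gene, at 37.8, 31.6 and 26.8 against 70.8, 59.9 and 58.7 (-0.96 ± 0.16, adjusted p = 0.00054). Gata4, a cardiac transcription factor, was at 77.9, 77.7 and 76.2 against 105, 110 and 117 (-0.51 ± 0.09, adjusted p = 0.00067). Xirp1, an actin-binding repeat protein, and the transcription factor Mef2d differed by -0.40 ± 0.08 and -0.28 ± 0.07. Without treated wild-type replicate 1 the list had 4 higher members.

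Of 22 sarcomere genes 7 were lower and 2 higher (median -0.10). Tcap, telethonin, which caps titin at the Z-disc (chromosome 11, 98383811 to 98384953), was at 320, 303 and 240 against 679, 645 and 609 (-1.17 ± 0.10, adjusted p = 5.6e-06). Myom2, the M-band protein myomesin 2, was at 422, 366 and 402 against 1024, 961 and 890 (-1.27 ± 0.13, adjusted p = 1.2e-05). The groups did not overlap for either gene. The ventricular light chain Myl3 differed by -0.53 ± 0.10 (adjusted p = 0.0018). Neb, nebulin, a thin-filament ruler of skeletal muscle, was at 12.3, 10.7 and 11.1 against 6.16, 5.17 and 6.08 (0.87 ± 0.13, adjusted p = 0.00034; 0.44 with a pseudocount of 10). The other higher member was Ttn, titin (0.30 ± 0.09, adjusted p = 0.020), which was no longer called after leaving out treated wild-type replicate 1 (adjusted p = 0.071) or untreated knockout replicate 2 (adjusted p = 0.073) or 3 (adjusted p = 0.094).

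Fatty acid oxidation was the main block that was lower. Of 30 genes of fatty acid uptake and oxidation 25 were lower and 1 higher (median -0.52), against 16.9% and 16.4% of all genes. The groups did not overlap at 27 of the 30, against 47.4% of all tested genes. Slc27a1, a fatty acid transporter of the cell membrane, was at 61.1, 46.9 and 46.2 in treated wild-type and 117, 119 and 102 in untreated knockout hearts (-1.12 ± 0.10, adjusted p = 6.0e-06). In the mitochondrial spiral, Hadh, the short-chain hydroxyacyl-CoA dehydrogenase (ENSMUSG00000027984, chromosome 3, 131233419 to 131272101), was at 308, 287 and 230 against 566, 590 and 526 (-1.03 ± 0.11, adjusted p = 1.7e-05). Acaa2, the thiolase of the last step, was at 450, 435 and 321 against 757, 807 and 738 (-0.95 ± 0.11, adjusted p = 4.5e-05). Treated wild-type replicate 3 had the lowest value for each of these 3 genes, and the other two were still below every untreated sample.

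Ucp3, a mitochondrial carrier that follows fatty acid supply, was at 34.1, 36.0 and 21 against 68.9, 76.7 and 88.0 (-1.36 ± 0.17, adjusted p = 6.2e-05). The member called higher was Acot13, an acyl-CoA thioesterase, at 161, 163 and 156 against 145, 136 and 138 (0.20 ± 0.06, adjusted p = 0.029). It was no longer called after leaving out treated wild-type replicate 1 (adjusted p = 0.067) or 2 (adjusted p = 0.078) or untreated knockout replicate 2 (adjusted p = 0.11) or 3 (adjusted p = 0.084). The summed level of the list was 16743, 16294 and 13303 in treated wild-type hearts and 20866, 21396 and 20186 in untreated knockout hearts. Treated knockout hearts had 13183 to 15479.

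The 27 promoter windows of 24 of these genes were searched for TCAAGGTCA, the extended element of estrogen-related receptors, on both strands. It was in 0 of them, against 0.423% of all windows. An element this rare is seldom met in 27 windows, so the search cannot tell this list from other promoters. Of 13 tested regulators of the PPAR, ERR and PGC-1 families 4 were lower and 1 higher (median -0.12). Klf15, a transcription factor of amino acid and lipid use, was at 24.0, 20.1 and 17.5 against 37.2, 35.2 and 32.6 (-0.75 ± 0.12, adjusted p = 0.00038). The retinoid X receptor Rxrg and the estrogen-related receptor Esrra differed by -0.49 ± 0.09 and -0.39 ± 0.09 (adjusted p = 0.0013 and 0.0046). Esrrb (-0.35 ± 0.11, adjusted p = 0.024) lost its call under 7 alternatives (adjusted p = 0.050 to 0.092), among them leaving out treated wild-type replicate 1 or 3 or untreated knockout replicate 2 or 3. Nrf1, a regulator of nuclear genes for mitochondria, was the higher member (0.43 ± 0.13, adjusted p = 0.023) and lost its call under 6 (adjusted p = 0.054 to 0.082), among them without treated wild-type replicate 2 or 3 or untreated knockout replicate 3. With a pseudocount of 10 it differed by 0.23.

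Pyruvate entry and the tricarboxylic acid cycle had 12 of 29 genes lower and 0 higher (median -0.24). Pdk2, a kinase that turns pyruvate dehydrogenase off, was at 229, 225 and 197 against 319, 333 and 328 (-0.59 ± 0.08, adjusted p = 0.00017). Pdp2, the phosphatase that turns it on, was at 13, 11.8 and 8.94 against 22.8, 21.2 and 22.8 (-0.94 ± 0.15, adjusted p = 0.00038; -0.61 with a pseudocount of 10). Both opposing regulators were thus lower. Idh2, the NADP-linked isocitrate dehydrogenase of mitochondria, was at 932, 908 and 721 against 1294, 1259 and 1287 (-0.59 ± 0.10, adjusted p = 0.00081). Cs, citrate synthase, and Idh3g, a regulatory subunit of the NAD-linked isocitrate dehydrogenase, differed by -0.37 ± 0.09 and -0.31 ± 0.07. The count of lower genes was 6 without treated wild-type replicate 3, 7 and 6 without untreated knockout replicate 1 or 2, and 19 without treated knockout replicate 2, which enters only the shared spread.

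Glucose transport and glycolysis split, with 7 of 20 genes higher and 4 lower (median 0.10). Ldha, the lactate dehydrogenase subunit that favours lactate formation, was at 647, 729 and 663 against 487, 513 and 490 (0.45 ± 0.07, adjusted p = 0.00029). Ldhb, the heart subunit, went the other way (-0.40 ± 0.10, adjusted p = 0.0057). The platelet-type phosphofructokinase Pfkp was at 63.1, 72.4 and 100 against 51.3, 49.4 and 51.1 (0.60 ± 0.13, adjusted p = 0.0039). The muscle-type Pfkm was at 684, 674 and 601 against 865, 833 and 837 (-0.37 ± 0.08, adjusted p = 0.0024; -0.19 after quantile normalization). The insulin-responsive transporter Slc2a4 differed by -0.36 ± 0.09. In both of these enzyme pairs the muscle or heart form was lower and the other form higher.

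Bdh1, the mitochondrial enzyme that oxidizes the ketone body 3-hydroxybutyrate (chromosome 16, 31422280 to 31458901), is named here after its values were seen. It was at 202, 228 and 170 against 44.0, 52.9 and 65.6 (1.87 ± 0.13, adjusted p = 6.9e-07), with 165 to 169 in treated knockout hearts. Treated wild-type samples lay above treated knockout samples, replicate 3 only just, and untreated knockout hearts lay well below both groups.

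**Figure D4:**
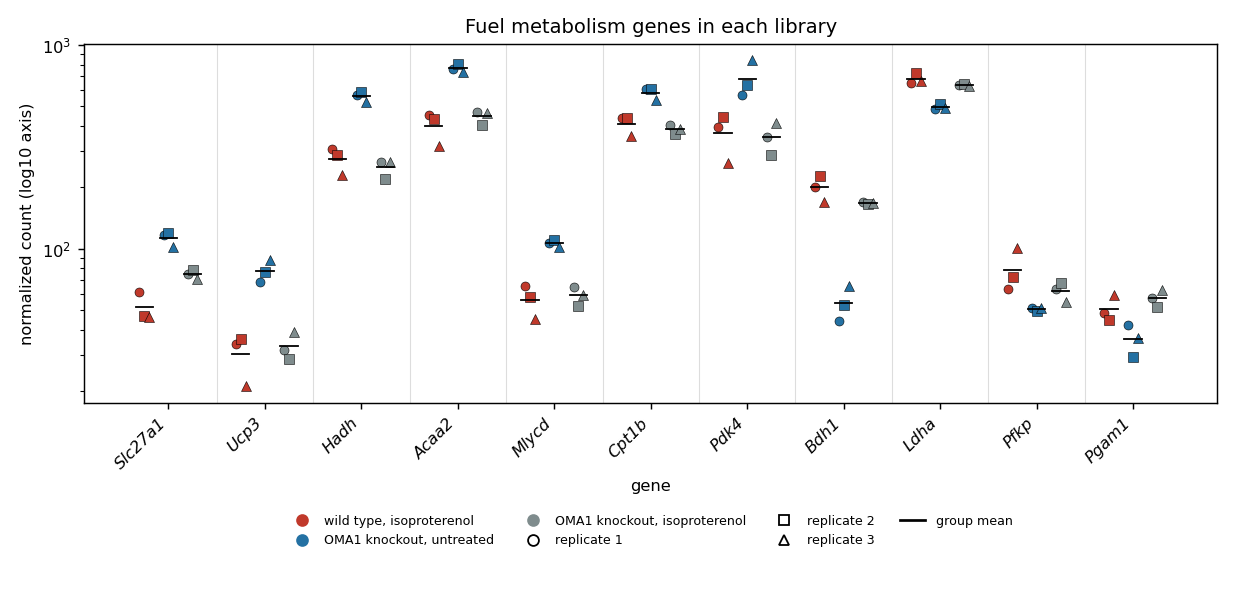
Normalized count of 11 genes of fuel metabolism in each of the 9 samples (log10 axis), with groups by colour, replicate numbers by symbol and group means as bars. The 7 genes from Slc27a1 to Pdk4 lie lower in treated wild-type than in untreated knockout samples, and Bdh1, Ldha, Pfkp and Pgam1 lie higher.

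Of 74 nuclear genes of the respiratory chain and ATP synthase 15 were lower and 4 higher (median -0.10). The lower share was near the 16.9% of all genes, and the higher share was below 16.4%. Cox6a2, the muscle form of a cytochrome oxidase subunit, was at 555, 550 and 437 against 822, 855 and 767 (-0.67 ± 0.09, adjusted p = 0.00013). Ndufv1 and Ndufs7 of complex I and Uqcrc1 of complex III differed by -0.49 ± 0.09, -0.49 ± 0.09 and -0.46 ± 0.09. Ndufs7 differed by -0.29 after length and GC correction and Uqcrc1 by -0.29 after quantile normalization. The count of lower genes was 9 without untreated knockout replicate 2. That of higher genes was 8 without treated wild-type replicate 3 and after length and GC correction, and 2 without any 1 of the other 5 samples compared or with no mean-variance trend.

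Of the 13 mRNAs of the mitochondrial genome 2 were higher, a share near the 16.4% of all genes, and 0 lower. They were mt-Atp8 (6597, 5883 and 5958 against 4875, 4472 and 4422; 0.42 ± 0.09, adjusted p = 0.0025) and mt-Nd4l (0.34 ± 0.08, adjusted p = 0.0074), both short reading frames that overlap a neighbour, so their reads may be shared with it. The count of higher genes was 4 by edgeR, DESeq2 and without treated wild-type replicate 3, and 7 after quantile normalization (with 3 lower). Equal totals of the nuclear genes left these mRNAs out and gave no value for them.

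Among 24 genes of mitochondrial dynamics, cristae and proteases Oma1 was the 1 called higher, and 5 were lower (median -0.03), a share near the 16.9% of all genes. Spg7, paraplegin, a subunit of the matrix-facing protease of the inner membrane, was at 65.4, 63.4 and 65.5 against 91.7, 83.9 and 77.6 (-0.37 ± 0.08, adjusted p = 0.0024). Htra2, a protease of the intermembrane space, and Fis1, an outer membrane adaptor of fission, differed by -0.47 ± 0.10 and -0.29 ± 0.08 (adjusted p = 0.0040 and 0.015). After length and GC correction Htra2 differed by -0.31 (adjusted p = 0.035, and 0.051 with the replicate block) and Fis1 by -0.15 (adjusted p = 0.15). Fis1 was also lost without untreated knockout replicate 1 (adjusted p = 0.078) and with equal totals of the nuclear genes (adjusted p = 0.051). The list had 2 lower genes after the correction, 1 with the block as well, 3 with equal totals of the nuclear genes, 3 without treated wild-type replicate 3, and 2 and 3 without untreated knockout replicates 1 and 2.

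Excitation and calcium genes moved in both directions. Of 28 cardiac ion channel genes 16 were lower and 4 higher (median -0.50). Scn4b, an auxiliary sodium channel subunit, was at 19.8, 21.1 and 19.7 against 40.2, 42.9 and 44.9 (-1.04 ± 0.10, adjusted p = 6.0e-06). Kcnip2, the subunit that sets the transient outward potassium current of the ventricle, was at 110, 116 and 91.2 against 162, 171 and 171 (-0.68 ± 0.10, adjusted p = 0.00034). Kcnk3, a leak potassium channel, was at 181, 182 and 160 against 242, 251 and 243 (-0.49 ± 0.07, adjusted p = 0.00023). Kcna5, a potassium channel of the ultrarapid repolarizing current, was higher, at 18.2, 16.1 and 16.7 against 9.54, 9.47 and 10.5 (0.73 ± 0.10, adjusted p = 0.00014; 0.44 with a pseudocount of 10).

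Some channels of this list are also atrial genes. Kcnj3, a subunit of the acetylcholine-gated potassium channel and on the atrial list, was at 67.5, 55.6 and 50.3 against 137, 96.0 and 103 (-0.93 ± 0.14, adjusted p = 0.00021). The T-type calcium channel Cacna1h was at 13, 10.0 and 9.80 against 35.4, 20.3 and 28 (-1.25 ± 0.17, adjusted p = 0.00014). For both the highest untreated sample was replicate 1, as for Myl7, and the lowest was replicate 2. The part of the atrial tissue in these 2 differences was not tested.

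Calcium handling had 10 of 26 genes lower and 7 higher (median -0.02), and the largest fall was that of the atrial gene Sln given above. Ryr2, the channel that releases calcium from the sarcoplasmic reticulum, was at 2048, 1813 and 1809 against 1439, 1382 and 1266 (0.47 ± 0.08, adjusted p = 0.0010), with 1090 to 1270 in treated knockout hearts. Calm2, a calmodulin gene, was at 126, 134 and 128 against 69.8, 67.8 and 76.3 (0.85 ± 0.07, adjusted p = 2.9e-06). Casq1, the skeletal calsequestrin, was at 6.69, 6.00 and 4.71 against 14.7, 11.3 and 14.5 (-1.10 ± 0.18, adjusted p = 0.00047; -0.57 with a pseudocount of 10). Hrc, a calcium-binding protein of the reticulum, and the kinase gene Camk2a differed by -0.58 ± 0.10 and -0.59 ± 0.10. Pln, phospholamban, the inhibitor of the calcium pump, was at 4389 ± 417 and 5249 ± 78.5 (-0.26 ± 0.11, adjusted p = 0.074) and was called lower under 7 alternatives. The count of higher genes was 4 without untreated knockout replicate 2.

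In adrenergic signalling, the pathway that isoproterenol acts on, 9 of 32 genes were higher and 5 lower (median 0.07). Grk5, a kinase that desensitizes beta receptors, was at 50.6, 52.9 and 53.8 against 19.8, 22.3 and 28 (1.15 ± 0.11, adjusted p = 6.2e-06). Pde4b, a phosphodiesterase that degrades cyclic AMP, was at 61.3, 63.8 and 53.2 against 31.2, 31.5 and 33.0 (0.87 ± 0.09, adjusted p = 1.0e-05). Pde8a, another of that family, Gnai3, an inhibitory G protein subunit, and Crem, a cyclic AMP-responsive transcription factor, differed by 0.67 ± 0.09, 0.53 ± 0.08 and 0.88 ± 0.14, the last by 0.44 with a pseudocount of 10. Adcy1, an adenylyl cyclase outside that list, was among the genes with the largest falls, at 1.56, 1.84 and 1.73 against 20.9, 12.5 and 17.4 (-2.70 ± 0.25, adjusted p = 7.0e-06; -1.19 with a pseudocount of 10), with the same order of untreated samples as Myl7. The part of atrial tissue in this fall was not tested.

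Protein folding genes of the endoplasmic reticulum were mostly lower: 10 of 19 were lower and 1 higher (median -0.33). Hspa5, the chaperone BiP, was at 364, 370 and 332 against 574, 495 and 661 (-0.69 ± 0.10, adjusted p = 0.00019). Manf, a secreted folding factor, was at 17.3, 17.4 and 21.9 against 32.6, 28.7 and 42.6 (-0.83 ± 0.16, adjusted p = 0.0015). Both were highest in untreated knockout replicate 3. Xbp1, a transcription factor of the unfolded protein response, was at 39.6, 42.2 and 43.0 against 58.7, 60.5 and 66.7 (-0.56 ± 0.07, adjusted p = 0.00011), and the chaperone Canx differed by -0.33 ± 0.06. Edem1, which delivers misfolded glycoproteins for degradation, was the higher member (0.52 ± 0.11, adjusted p = 0.0025).

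The integrated stress response list had 3 of 9 tested genes higher and 2 lower (median 0.12). Atf4, its central transcription factor, was at 61.2, 62.1 and 61.8 against 45.4, 49.3 and 44.1 (0.41 ± 0.07, adjusted p = 0.0011), and its relative Atf5 and the growth inhibitor Ddit4 differed by 0.53 ± 0.09 and 0.78 ± 0.14. The lipoprotein receptor gene Vldlr was at 303, 270 and 256 against 411, 395 and 378 (-0.52 ± 0.11, adjusted p = 0.0026). The call of Aldh1l2, a folate enzyme of mitochondria (-0.52 ± 0.16, adjusted p = 0.020; -0.29 with a pseudocount of 10), did not hold after leaving out treated wild-type replicate 2 (adjusted p = 0.067) or 3 (adjusted p = 0.064) or untreated knockout replicate 3 (adjusted p = 0.072). 13 of the 22 listed members lay below the minimum, and without it 6 were higher and 2 lower.

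Of 27 antioxidant enzymes 6 were higher and 6 lower (median -0.05), both shares near those of all genes (16.4% and 16.9%). Txnrd1, the cytosolic thioredoxin reductase, was at 63.5, 62.6 and 57.6 against 46.7, 43.8 and 44.6 (0.43 ± 0.07, adjusted p = 0.00047), and Mt2, a metallothionein, differed by 0.91 ± 0.18 (adjusted p = 0.0023; 0.46 with a pseudocount of 10). Txn2, the mitochondrial thioredoxin, and the glutathione transferases Gstm1 and Gstp1, of families with similar copies, differed by -0.37 ± 0.08, -0.34 ± 0.09 and -0.39 ± 0.08. After length and GC correction Gstm1 and Gstp1 were at -0.22 and -0.24, and with the replicate block as well Gstp1 lost its call (adjusted p = 0.058). The count of higher genes was 3 without treated wild-type replicate 1 or 2, 2 without untreated knockout replicate 2 and 3 with no mean-variance trend. That of lower genes was 3 without untreated knockout replicate 1 or 2.

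Of 15 endothelial markers 10 were higher, 0 lower and 5 not called (median 0.33), against 16.4% higher among all genes, and their sum was 2147, 2279 and 2110 against 1512, 1556 and 1667. Cdh5, the cadherin of endothelial junctions, was at 266, 283 and 281 against 169, 163 and 174 (0.71 ± 0.07, adjusted p = 8.3e-06). Cd93, an endothelial lectin-like receptor, and Pecam1, the adhesion molecule CD31, differed by 0.87 ± 0.11 and 0.69 ± 0.08. Fabp4, which binds fatty acids in capillaries and fat cells, was at 458, 469 and 394 against 287, 284 and 331 (0.55 ± 0.10, adjusted p = 0.00084), although the other adipocyte markers were near 0 in the treated group. The vascular growth factor receptor Kdr differed by 0.49 ± 0.09.

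Of 11 smooth muscle and pericyte markers 5 were higher, 0 lower and 6 not called (median 0.21), against 16.4% higher among all genes. Acta2, smooth muscle actin, which activated fibroblasts also make, was at 230, 178 and 163 against 85.9, 85.6 and 70.2 (1.22 ± 0.12, adjusted p = 1.1e-05). Rgs5, a pericyte regulator of G proteins, was at 778, 761 and 669 against 422, 425 and 422 (0.79 ± 0.09, adjusted p = 2.1e-05). Cspg4 and Notch3, of pericytes and arterial muscle, differed by 0.56 ± 0.11 and 0.46 ± 0.09, and the call of Pdgfrb (0.27 ± 0.08, adjusted p = 0.017) was lost without untreated knockout replicate 3 (0.20, adjusted p = 0.083).

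All 12 tested fibroblast markers were called, 8 higher and 4 lower (median 0.39). Pi16, of adventitial fibroblasts, was at 94.2, 97.1 and 120 against 50.2, 49.6 and 51.3 (1.02 ± 0.09, adjusted p = 5.7e-06). The proteoglycan Lum, the matrix protein Dpt and the collagen receptor Ddr2 differed by 0.78 ± 0.11, 0.55 ± 0.08 and 0.54 ± 0.08. The lower 4 were Gsn (-0.54), the actin-severing protein gelsolin, Fbln1 (-0.51), a basement membrane fibulin, Dpep1 (-0.30), a dipeptidase, and Htra3 (-0.23), a secreted protease, named after their values were seen. Summed over the list, the groups overlapped, at 1912, 1936 and 2251 against 2014, 1937 and 1990.

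Of 8 tested macrophage markers 2 were higher and 0 lower (median 0.19). Without a minimum level these 2 were the only ones called of 16 listed, a share near the 13.7% of all genes. They were Mrc1, the mannose receptor of resident macrophages (31.6, 32.6 and 39.6 against 19.8, 22.8 and 24.2; 0.61 ± 0.10, adjusted p = 0.00049), and the integrin gene Itgam (0.98 ± 0.17, adjusted p = 0.00061; 0.46 with a pseudocount of 10). Csf1r, also on this list, differed by 0.21 ± 0.12 (adjusted p = 0.18) and was called higher without untreated knockout replicate 3 (0.34, adjusted p = 0.041). Lymphocyte, neutrophil and Schwann cell or neuron markers were all below the minimum. Without it, 3 of 4 lymphocyte markers were lower and 1 higher, 1 of 6 neutrophil and mast cell markers was lower and 0 higher, and 3 of 5 Schwann cell and neuron markers were lower and 0 higher, against 12.9% lower among all genes. The Schwann cell and neuron markers summed to 8.25, 6.92 and 7.02 against 18.5, 19.6 and 17.1. Ighm, the heavy chain of immunoglobulin M, was lower, at 4.31, 4.38 and 4.23 against 18.7, 17.6 and 106 (-2.68 ± 0.47, adjusted p = 0.00081; -1.66 with a pseudocount of 10), with replicate 3 of the untreated group highest as for the fat genes. The part of fat tissue in the Ighm difference was not tested.

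Of the 8 cardiomyocyte markers 1 was higher, Ryr2, and 2 lower (median -0.22), and their sum was 46286, 44588 and 39320 against 51205, 50106 and 47607. The lower 2 rested on single samples or settings. Tnni3, cardiac troponin I (-0.38 ± 0.11, adjusted p = 0.018), lost its call without untreated knockout replicate 1 (adjusted p = 0.075) or 2 (adjusted p = 0.066) and once length and GC content were corrected for (-0.22, adjusted p = 0.11). Leaving out treated wild-type replicate 3 gave -0.22 (adjusted p = 0.035). Mb, myoglobin (-0.30 ± 0.09, adjusted p = 0.022), lost it without the same 2 samples (adjusted p = 0.085 and 0.081), after leaving out treated wild-type replicate 3 (adjusted p = 0.050) and after the correction (-0.16, adjusted p = 0.15). The count of lower markers was 5 by DESeq2, 4 after quantile normalization and 0 without untreated knockout replicate 1 or 2.

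Of 17 tested interferon-stimulated genes 6 were higher and 0 lower (median 0.30), and of all 24 listed, with no minimum level, 5 and 0. Ddx58, the RNA sensor RIG-I, was at 21.6, 25.2 and 24.3 against 12.4, 13.9 and 16.9 (0.69 ± 0.11, adjusted p = 0.00048). Ifi44, an antiviral protein, was at 9.35, 10.5 and 11.0 against 2.90, 4.55 and 7.18 (1.0 ± 0.24, adjusted p = 0.0065; 0.46 with a pseudocount of 10). The calls of Ifit2, Ifit3 and Oasl2 (0.45 ± 0.13, 0.41 ± 0.12 and 0.53 ± 0.16) were each lost without untreated knockout replicate 1 (adjusted p = 0.082, 0.064 and 0.076). Ifit2 was also lost without treated wild-type replicate 2 and after length and GC correction, and Ifit3 and Oasl2 without treated wild-type replicate 3 or untreated knockout replicate 2. Oasl2 was also lost without treated wild-type replicate 2. With a pseudocount of 10 the 3 genes differed by 0.29, 0.26 and 0.34. The list had 2 higher genes without untreated knockout replicate 1 and 3 without treated wild-type replicate 2. Treated knockout hearts were higher still, with a median difference from untreated knockout hearts of 0.68 over the list.

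Of 15 immediate early genes 6 were higher and 2 lower (median 0.07). Klf4, a transcription factor of vessels and fibroblasts, was at 41.1, 32.2 and 38.3 against 16.5, 16.1 and 21.3 (1.01 ± 0.11, adjusted p = 2.2e-05), and the AP-1 subunits Fosl2 and Jun differed by 0.63 ± 0.13 and 0.48 ± 0.11. Egr1, an early growth response factor, was at 12.7, 9.69 and 21.7 against 37.8, 28.7 and 29.6 (-1.13 ± 0.24, adjusted p = 0.0028). The other lower member was Zfp36, which destabilizes mRNAs (-0.68 ± 0.13, adjusted p = 0.0017; -0.42 with a pseudocount of 10).

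Of 16 tested clock genes 7 were lower and 3 higher (median -0.12). Arntl, the activator BMAL1, was at 30.1, 33.4 and 30.5 against 17.8, 18.1 and 17.8 (0.77 ± 0.09, adjusted p = 3.0e-05), and Nfil3, a repressor at D-box elements, differed by 0.73 ± 0.14 (adjusted p = 0.0013; 0.45 with a pseudocount of 10). Nr1d1, the repressor REV-ERB alpha, which silences Arntl, was at 47.7, 44.5 and 46.6 against 101, 110 and 96.2 (-1.12 ± 0.13, adjusted p = 3.0e-05). The D-box activators Dbp, Tef and Hlf were all lower, Dbp at 6.33, 5.65 and 7.88 against 30.4, 25.6 and 16.6 (-1.70 ± 0.22, adjusted p = 9.8e-05; -1.02 with a pseudocount of 10), Tef by -0.75 ± 0.10 and Hlf by -1.0 ± 0.17 (-0.60 with a pseudocount of 10). The call of Bhlhe40, a further repressor of the clock (0.35 ± 0.11, adjusted p = 0.023), did not hold after leaving out treated wild-type replicate 3 (0.21, adjusted p = 0.091) or untreated knockout replicate 2 or 3 (adjusted p = 0.072 and 0.073). The labels give no time of day of collection.

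**Figure D5:**
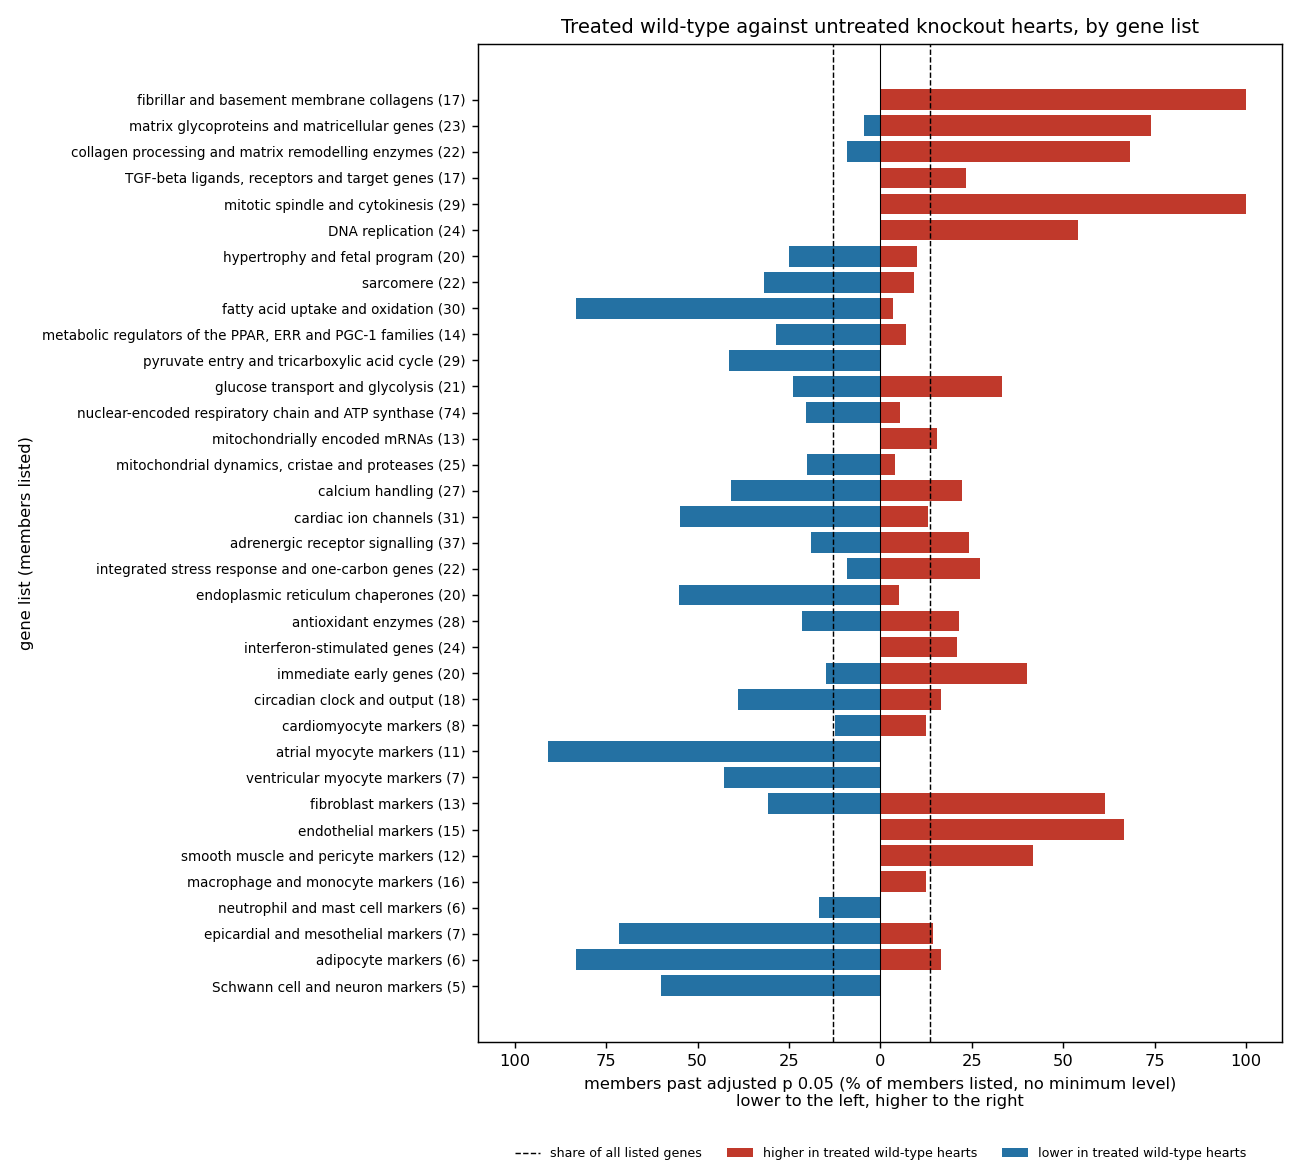
Share of each gene list called higher (red, to the right) or lower (blue, to the left) in treated wild-type hearts, tested over all 13539 listed genes with no minimum level, for lists with at least 5 listed members (number in brackets). Dashed lines mark 13.7% higher and 12.9% lower among all listed genes. The collagen and mitotic lists reach 100% higher, and the fatty acid, atrial and adipocyte lists lie farthest to the left.

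The remaining genes among the 12 largest rises and 12 largest falls were Tom1, Rps13, Car3, Scd1 and Ramp1. Tom1, an endosomal sorting adaptor (chromosome 8, 75033705 to 75070121), was at 16.2, 22.4 and 31.3 in treated wild-type hearts and at 0 in all 3 untreated knockout samples, at least 183-fold higher with 3 reads over the group as the floor. The treated knockout samples were at 1.97, 0 and 19.1, so 1 of them was near the wild-type level and the others were not. Rps13, a ribosomal protein gene with near-identical copies, was at 25.1, 25.6 and 11.8 against 0, 3.44 and 1.93 (3.14 ± 0.45, adjusted p = 0.00020; 1.36 with a pseudocount of 10). How the counting split its reads among copies is not given in the sources used here, so this value is uncertain.

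Among the falls, Car3, a carbonic anhydrase of fat and muscle, was at 0.275, 0 and 0 against 28.4, 19.1 and 78.9 (-5.06 ± 0.44, adjusted p = 5.0e-06; -2.20 with a pseudocount of 10). Scd1, a desaturase abundant in fat, was at 14.3, 15.0 and 14.7 against 102, 53.7 and 246 (-2.83 ± 0.35, adjusted p = 6.6e-05). Their order among untreated samples was that of Cfd and Adipoq, with replicate 3 highest and replicate 2 lowest. Ramp1, a subunit of the receptor for calcitonin gene-related peptide, was even among samples, at 1.47, 1.84 and 1.92 against 11.6, 11.2 and 12.8 (-2.23 ± 0.23, adjusted p = 1.7e-05; -0.90 with a pseudocount of 10).

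The treated knockout hearts share a treatment with one group and a genotype with the other, and both of the following comparisons share samples with the main one, so their values are only set side by side. Of all tested genes, 27.8% differed between treated wild-type and treated knockout hearts and 51.4% between treated and untreated knockout hearts. For the collagens the list median was 1.07 in treated wild-type minus untreated knockout hearts, 0.17 in treated wild-type minus treated knockout hearts and 0.94 in treated minus untreated knockout hearts. For fatty acid oxidation these medians were -0.52, 0.08 and -0.69, for the tricarboxylic acid cycle -0.24, 0.25 and -0.46, and for the respiratory chain -0.10, -0.27 and 0.18. For endothelial markers they were 0.33, -0.38 and 0.84.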

How the data were processed

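RNA from 9 heart samples, 3 per group, was sequenced from TruSeq libraries, per the labels' protocols. The deposited values are a signal per gene, normalized expected counts that the authors made with RSEM 1.17, and cutadapt, limma and the build GRCm38 are named in the submitters' processing notes. The sources used here do not give the aligner, the settings, the scaling, strandedness or the rule for the 13539 genes listed. In each library every value is a whole multiple of 1 step (100% within 0.02 reads), so read counts were recovered by division by that step, giving 6933879 to 12187701 reads per library, and 6933879 to 10809118 in the 6 compared.

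The comparison was fitted with limma 3.58.1 in R 4.3.3 (empirical Bayes with a mean-variance trend) on log2(value + 1), with 1 mean for each of the 3 groups and a shared spread, over the 8543 genes with a value of 10 or more in at least 3 of 9 libraries. The test was two-sided with Benjamini-Hochberg adjustment, and the steps were tested on simulated data. Since the labels do not tie samples to named animals, p-values measure only the spread between these samples. The 26 alternatives changed the pseudocount, the minimum level, the scaling or the model, corrected for transcript length and GC content, used the recovered reads with edgeR 4.0.16, DESeq2 1.42.0 or limma voom, or left out 1 of the 9 libraries. Positions, lengths and GC content are from GENCODE on GRCm38, matched for 13385 of the 13539 genes.

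Genes were named by a fixed rule. It took Oma1, Opa1 and 8 genes of cardiac load and scarring, the 12 largest differences each way among called genes whose groups did not overlap (leaving out predicted models), from each list the 5 tested members (or fewer) of smallest p and any called against the rest, and defining cell markers. Genes outside the rule are marked as such, and some genes within it are not reported here. The members, the 24 gene lists and the 14 marker lists were chosen with earlier results of these data known.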

Additional observations from a re-analysis of the deposited data

How the results depend on the processing

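Across the 26 alternatives the count of higher genes stayed within 1.5 times of 1399 and that of lower genes within 1.5 times of 1440. Without a minimum level they were 1859 and 1745 of 13539 genes. With a value of 10 or more required in all 6 libraries they were 1158 and 1251 of 7388, and with DESeq2 1158 and 1206. Leaving out 1 library gave 1047 to 1507 higher and 988 to 1607 lower genes, with the lowest counts without untreated knockout replicate 2 and the highest without treated knockout replicate 2. Among 185 named genes no difference that was called in the main fit or in the alternative reversed, and 150 kept their call, or lack of one, under every alternative. A change of sign in a gene called in neither fit was not counted. Of the called named genes 45 moved by over 1.5 times with a pseudocount of 10, so the size of differences at low levels depends on it.

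The replicate numbers are shared by the groups, and whether they pair the samples could not be settled. The correlations of deviations between treated wild-type and untreated knockout samples of the same number were 0.072, 0.038 and 0.11. Those of unlike numbers ran from -0.146 to 0.075. Treated wild-type replicates 2 and 3 correlated best with their own number, and replicate 1 with untreated knockout replicate 2 (0.075), by a small margin. With the replicate number as a block 1369 genes were higher and 1386 lower.

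Depth limits the least abundant genes: 3 reads over a group correspond to 0.101 normalized counts in treated wild-type and 0.127 in untreated knockout hearts, and this floor covers counting error only.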
